A study of Mus musculus with 12 samples.

Results

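The Hox genes encode homeodomain transcription factors that lie in 4 clusters, HoxA to HoxD, in the mouse. All 57 array probes whose gene symbol was one of 38 Hox cluster genes were taken, out of 45281 probes and 19057 named genes on the array. Cluster HoxA was represented by 10 of these genes, HoxB by 10, HoxC by 9 and HoxD by 9, and 13 of the 38 had more than 1 probe. Transcripts were measured on 12 Illumina bead arrays, 3 for each of 4 kinds of mouse cells. MEF were male embryonic fibroblasts of OG2 origin, OG2 being a mouse strain with a GFP reporter driven by the Oct4 promoter. ESC were OG2 embryonic stem cells described as mixed female and male. The male induced pluripotent cells iPS4F had received Oct4, Sox2, Klf4 and c-myc, and the male iPS6F cells had received the same factors plus Brg1 and Baf155, which are subunits of the BAF chromatin remodelling complex. Age, passage and number of clones were not given in the sources used here. The labels do not say whether the 3 arrays of a group came from separate cultures, so p-values measure only the spread between these arrays, which may be technical.

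Along each cluster the Hox genes are numbered by paralog group, from the 3' end, whose genes are expressed earliest and most anteriorly in the embryo, to the 5' end, whose genes are expressed later and more posteriorly. The combination of Hox genes that a mesenchymal cell expresses is known to be kept in culture, so fibroblasts carry a record of the body position they came from. In embryonic stem cells the clusters are known as large targets of Polycomb complexes, which place repressive marks on histones at CpG-rich sequence, and most Hox genes are silent there.

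Fibroblasts expressed part of every cluster. In MEF, 18 of the 38 Hox genes, 47.4%, had a probe with a detection p under 0.05 on all 3 arrays, beside 44.3% of all named genes. The detected genes were Hoxa2, Hoxa5, Hoxa7 and Hoxa13 of HoxA, Hoxb2, Hoxb4, Hoxb5, Hoxb6, Hoxb7 and Hoxb9 of HoxB, Hoxc6, Hoxc9 and Hoxc10 of HoxC, and Hoxd3, Hoxd4, Hoxd8, Hoxd9 and Hoxd10 of HoxD. By position, 5 of 11 genes of paralog groups 1 to 4, 7 of 11 of groups 5 to 8 and 6 of 16 of groups 9 to 13 were detected. No member of groups 1, 11 or 12 was detected on all MEF arrays, while both members analysed of group 2 and both of group 7 were. The longest unbroken run of detected genes along a cluster was 5 genes in HoxD, from Hoxd3 to Hoxd10, and 4 genes in HoxB, from Hoxb4 to Hoxb7. In HoxC the run was 2 genes, Hoxc9 and Hoxc10, and in HoxA no 2 neighbouring genes of those analysed were both detected. These counts are of detection by the probes on this array, and 12 of the 20 other genes were detected on no MEF array while 8 were detected on 1 or 2.

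The pluripotent cells detected almost none of these genes. On all 3 arrays of a group, 1 of the 38 genes was detected in ESC and 1 in iPS6F, Hoxa13 both times, and 0 in iPS4F. Of the 57 Hox probes, 28, 29 and 25 were detected on the MEF arrays, against 9, 6 and 4 on the ESC arrays, 4, 4 and 4 on the iPS4F arrays and 8, 6 and 8 on the iPS6F arrays. Every MEF array thus stood above every pluripotent array. Over the 9 pluripotent arrays 53 of 513 Hox measurements, 10.3%, passed the detection threshold, beside 40.6% for all named probes on the same arrays. Detection of all named probes did not separate the groups: 34.7% were found on all 3 arrays of MEF, 31.1% of ESC, 36.8% of iPS4F and 34.6% of iPS6F.

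**Figure D1:**
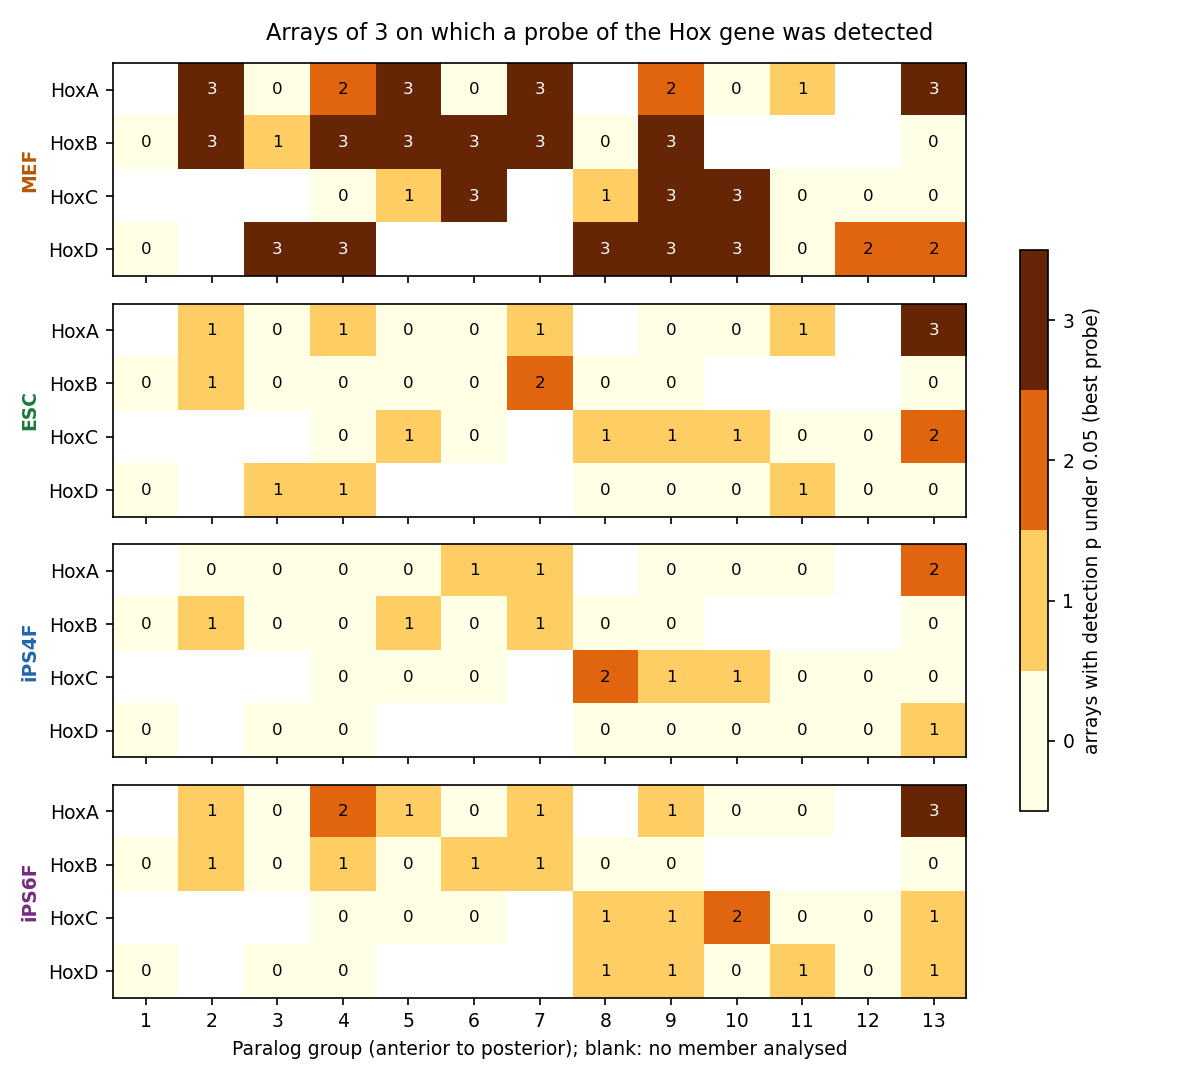
Each square is 1 Hox gene, with clusters as rows and paralog groups as columns, and its number is the count of arrays out of 3 on which its most often detected probe had a detection p under 0.05. The MEF panel holds 18 squares at 3, and the ESC, iPS4F and iPS6F panels hold 1, 0 and 1.

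**Figure D2:**
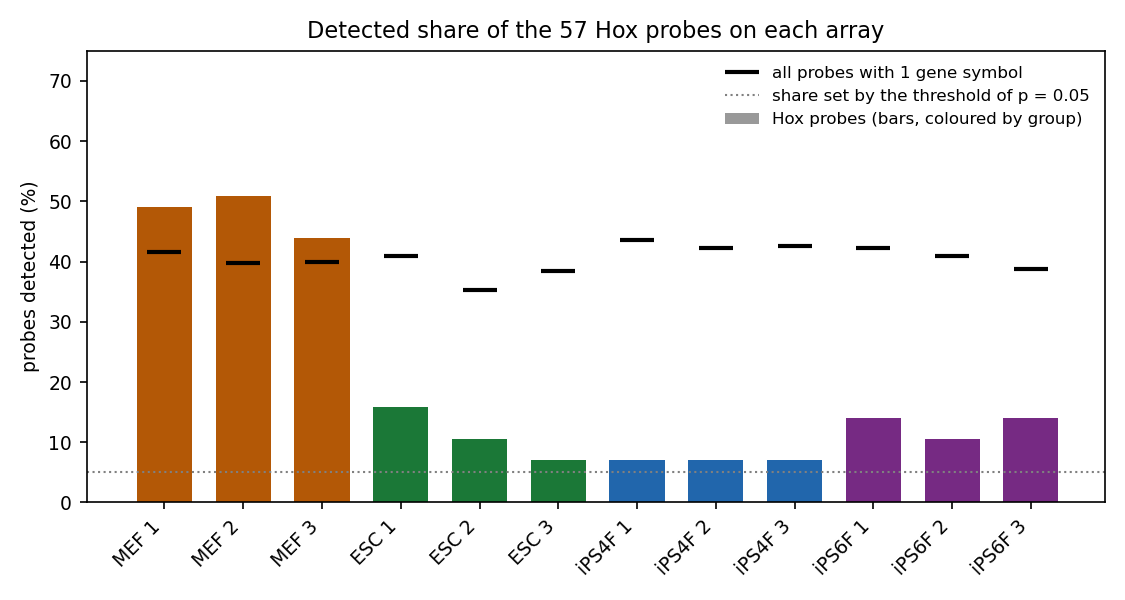
Bars give the percent of the 57 Hox probes detected on each array, coloured by group; black dashes give the percent over all probes with 1 gene symbol, and the dotted line marks 5%. The MEF bars reach 43.9% to 50.9% and the pluripotent bars 7.02% to 15.8%.

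Promoter windows of 300 bases, from 250 bases before to 50 after a transcript start, were held by RefSeq tables (GRCm38.p6) for 22 of the 38 genes, in 24 windows. HoxD, the cluster with the longest detected run, is shown by 4 of them. Hoxd8 and Hoxd10 were detected on all MEF arrays, whereas Hoxd1 at the 3' end of the cluster was detected on none and Hoxd13 at the 5' end on 2 of 3. Capitals mark CpG dinucleotides, the sequence at which Polycomb complexes and DNA methylation are known to act; the sequences read 5' to 3'.
Hoxd1, chr2:74762730-74763029, plus strand: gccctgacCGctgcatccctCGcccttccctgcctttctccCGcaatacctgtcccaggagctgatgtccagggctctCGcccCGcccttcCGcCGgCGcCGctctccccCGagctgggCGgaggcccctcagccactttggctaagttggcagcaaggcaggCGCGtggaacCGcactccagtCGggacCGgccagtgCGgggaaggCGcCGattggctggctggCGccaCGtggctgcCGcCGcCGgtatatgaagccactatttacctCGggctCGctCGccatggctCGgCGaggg
Hoxd8, chr2:74704365-74704664, plus strand: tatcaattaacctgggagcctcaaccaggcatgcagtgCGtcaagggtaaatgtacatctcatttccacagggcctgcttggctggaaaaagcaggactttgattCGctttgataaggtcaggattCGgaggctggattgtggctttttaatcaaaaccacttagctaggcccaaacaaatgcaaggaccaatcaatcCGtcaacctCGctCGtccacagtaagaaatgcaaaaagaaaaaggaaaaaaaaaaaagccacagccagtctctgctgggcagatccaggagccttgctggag
Hoxd10, chr2:74691641-74691940, plus strand: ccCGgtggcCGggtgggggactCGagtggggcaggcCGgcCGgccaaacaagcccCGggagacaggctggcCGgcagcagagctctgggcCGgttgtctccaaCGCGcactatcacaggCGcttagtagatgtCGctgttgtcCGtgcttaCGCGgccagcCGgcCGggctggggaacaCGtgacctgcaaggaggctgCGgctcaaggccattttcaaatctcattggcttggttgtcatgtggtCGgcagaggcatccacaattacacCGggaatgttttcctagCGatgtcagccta
Hoxd13, chr2:74667975-74668274, plus strand: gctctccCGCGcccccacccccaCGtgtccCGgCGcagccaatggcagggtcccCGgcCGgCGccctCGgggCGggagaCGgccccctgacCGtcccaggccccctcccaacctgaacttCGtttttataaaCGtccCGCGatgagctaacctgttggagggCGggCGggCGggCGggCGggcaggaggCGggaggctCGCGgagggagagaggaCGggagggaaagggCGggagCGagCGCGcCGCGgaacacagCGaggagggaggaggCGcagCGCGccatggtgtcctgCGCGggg
The 4 windows held 29, 6, 22 and 37 CpG dinucleotides in that order, so the detected genes did not share a CpG-rich or a CpG-poor start. Over the 24 Hox windows the median was 14.5 CpG dinucleotides, with a range of 4 to 45, beside a median of 7 over all 32851 windows in the table. The median was 17 in the 10 windows of genes detected in MEF and 14 in the 14 windows of the others. Both strands were also searched for 4 short motifs known for homeodomain proteins, none of which contains another. The Meis motif TGACAG was in 2 of 24 Hox windows (8.33%) and in 19.2% of all windows, and the Hox-Pbx motif TGATTNAT was in 2 (8.33%) and in 3.22% of all. The Cdx motif TTTATG was in 5 (20.8%) and in 11.9% of all, and the homeodomain core TAATTA was in 2 (8.33%) and in 5.29% of all. A match describes the letters in the window only.

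Levels are log2 intensities after background correction with an offset of 16 and quantile normalization, so an undetected probe sits a little above 4 and small levels are compressed. Of the 38 genes, 18 passed the filter for testing, and 17 of those passed through MEF alone. A gene that passes only where it is high has to be lower elsewhere, so the counts below describe the genes and do not stand as support. Against MEF, 17 of 18 tested Hox genes were lower and 0 higher at an adjusted p under 0.05 in each of ESC, iPS4F and iPS6F (limma with Benjamini-Hochberg adjustment over 10096 genes). Over all genes 76.5%, 78.9% and 78.6% were called in these comparisons and 36.3%, 39.1% and 39.4% were lower, and among the 1138 genes detected on all 3 arrays in MEF alone 90.7%, 93.7% and 93.7% were. The median log2 difference of the 18 genes was -1.78 in ESC, -1.74 in iPS4F and -1.77 in iPS6F, beside 0.08, 0.04 and 0.03 over all genes. It was -0.64, -0.61 and -0.59 without background correction and offset, and -4.40, -4.05 and -4.00 in the authors' deposited log2 table. Its size thus depends on the processing. Background and offset changed together in the first, and the steps behind the second are not stated. An undetected level gives only a bound, and with the 10, 13 and 7 Hox genes undetected on every array of ESC, iPS4F and iPS6F set at their bound the median was -1.48, -1.59 and -1.55. For the 17 Hox genes among those 1138 it was -2.00, -1.98 and -1.97, beside -0.999, -1.04 and -1.05 for the whole set. With undetected genes at their bound these became -1.69, -1.80 and -1.76 for the Hox genes and -0.86, -0.95 and -0.92 for the set. In each of the 3 comparisons the arrays of the 17 genes that passed through MEF alone did not overlap with MEF. Their filter makes this likely, so it does not stand as support, and no share over all genes is given beside it. In these bulk samples, fewer cells that express a gene and less RNA per cell cannot be told apart.

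**Figure D3:**
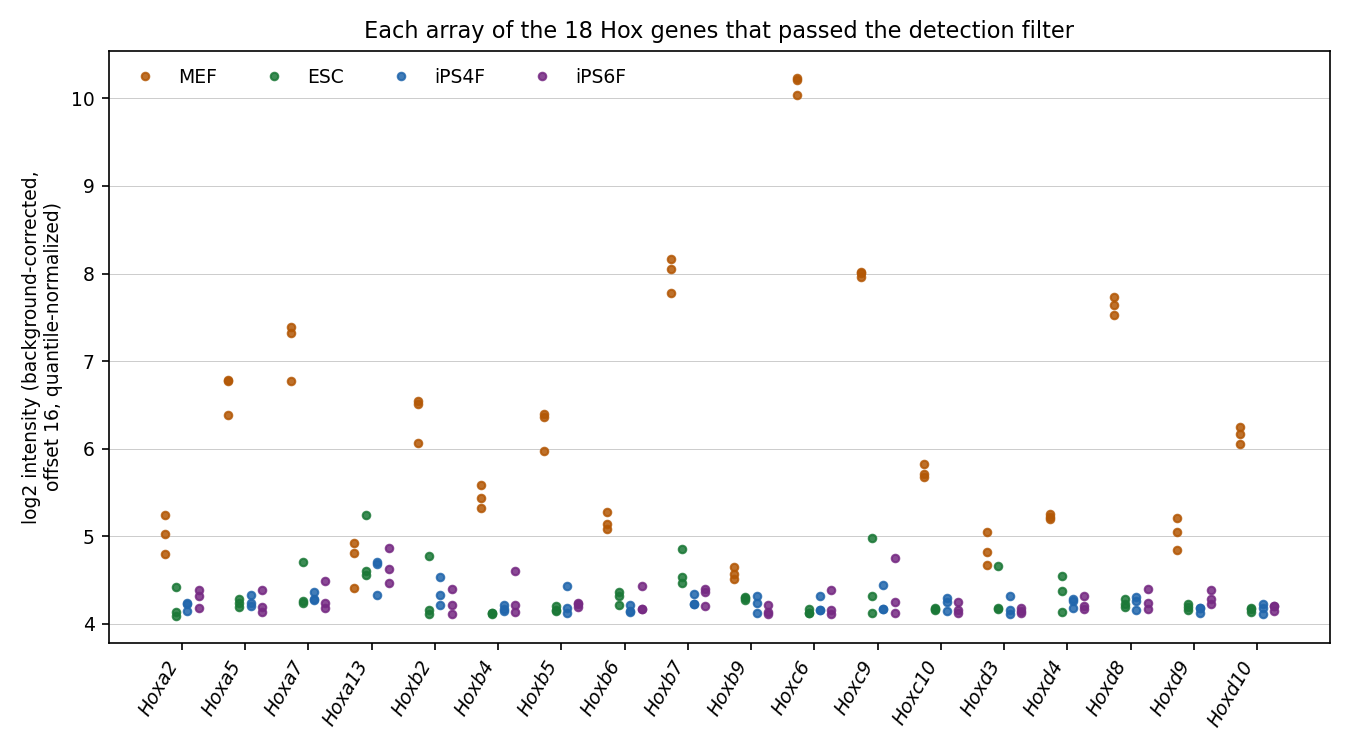
Points are the single arrays of the 18 tested Hox genes, on the log2 intensity scale, ordered by cluster and paralog group and coloured by group. MEF points lie above all 9 pluripotent points for every gene but Hoxa13. The filter makes this likely for genes that passed through MEF alone. Heights of different genes come from different probes and are not comparable.

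In HoxC, Hoxc6, a gene of the thoracic region and forelimb, had the largest difference of the family. Its deposited intensities were 1118, 966 and 1249 on the MEF arrays, and 71.7 to 82.7 on the 9 others. Its log2 levels were 10.21, 10.04 and 10.24 in MEF, 4.13, 4.13 and 4.17 in ESC, 4.32, 4.16 and 4.16 in iPS4F, and 4.11, 4.16 and 4.39 in iPS6F. The MEF arrays were close together and far above the rest, where no array detected the probe. Hoxc6 fell by 6.02 ± 0.11 (SE, 3 arrays a group) on the log2 scale in ESC (limma adjusted p 1.52e-17), and was at least 51.9-fold lower in ESC, at least 56.0-fold lower in iPS4F and at least 54.5-fold lower in iPS6F. These bounds take, in place of an undetected value, the lowest level of any detected probe on the array where that is higher.

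Hoxc9, known for specifying thoracic motor neurons, had levels of 8.002, 8.02 and 7.96 in MEF. It read 4.13, 4.98 and 4.32 in ESC, 4.45, 4.17 and 4.18 in iPS4F, and 4.12, 4.25 and 4.75 in iPS6F. The probe was detected on 1 array of each pluripotent group, and none of the 9 arrays came near MEF. Its log2 differences were -3.52, -3.73 and -3.62 (limma adjusted p 2.38e-11, 1.03e-11 and 1.52e-11). Hoxc10, which acts in the lumbar spinal cord and hindlimb, was at 5.68, 5.71 and 5.82 in MEF and between 4.12 and 4.30 elsewhere, where no array detected it, and it was at least 2.42-fold lower in ESC, 2.61-fold in iPS4F and 2.54-fold in iPS6F. A second Hoxc10 probe, detected on 1, 1 and 2 of those arrays, gave log2 differences of -0.90, -1.001 and -0.87. The neighbouring Hoxc8 gave 4.42, 4.37 and 4.21 in MEF and 4.14 to 4.66 elsewhere, overlapping throughout, with detection on 1 MEF array.

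In HoxB the detected genes ran from Hoxb2 to Hoxb9. Hoxb7, a trunk gene, was at 7.77, 8.17 and 8.05 in MEF. It read 4.85, 4.47 and 4.54 in ESC, 4.23, 4.34 and 4.23 in iPS4F, and 4.40, 4.37 and 4.21 in iPS6F. MEF stood far above all, and among the pluripotent groups ESC was the highest. The log2 difference from MEF was -3.38 in ESC and -3.67 in iPS6F (limma adjusted p 1.82e-13 and 5.70e-14), and Hoxb7 was at least 12.5-fold lower in iPS4F (4.79e-14). A second Hoxb7 probe was at 7.17, 7.23 and 6.60 in MEF and at 4.09 to 4.45 elsewhere, with detection on 1 iPS4F array, where the log2 difference was -2.77.

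Hoxb2, which acts in the hindbrain and facial motor neurons, was at 6.06, 6.51 and 6.54 in MEF and between 4.11 and 4.78 elsewhere, and its log2 difference in ESC was -2.02 ± 0.17. Hoxb5, which marks trunk and enteric neural crest derivatives, was at 6.40, 5.97 and 6.36 in MEF and between 4.13 and 4.43 elsewhere, and it was at least 3.42-fold lower in ESC. Hoxb4, also known for expanding blood stem cells when overexpressed, was at 5.32, 5.44 and 5.58 in MEF and 4.11 to 4.60 elsewhere, and it was at least 1.97-fold lower in ESC. The 3 genes kept MEF and pluripotent arrays apart, which their passing the filter through MEF alone makes likely. Hoxb6 was at 5.09, 5.28 and 5.14 in MEF and 4.14 to 4.44 elsewhere, and it was at least 1.63-fold lower in ESC. Hoxb9, a gene of thoracic rib patterning, was the closest to the limit of detection, at 4.57, 4.52 and 4.65 in MEF and 4.12 to 4.32 elsewhere. It was at least 1.08-fold, 1.17-fold and 1.14-fold lower in ESC, iPS4F and iPS6F (limma adjusted p 0.0135, 0.00349 and 0.000818), but in ESC the call was lost without background correction (log2 difference -0.09, adjusted p 0.104) and with median scaling (-0.27, adjusted p 0.0844).

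In HoxD all 5 detected genes were lower outside MEF. Hoxd8 was at 7.73, 7.53 and 7.65 in MEF, 4.22, 4.29 and 4.19 in ESC, 4.26, 4.16 and 4.30 in iPS4F, and 4.39, 4.17 and 4.24 in iPS6F. The gap between its lowest MEF array and its highest other array was 3.13. It was at least 8.99-fold lower in ESC (limma adjusted p 1.08e-14) and at least 9.70-fold lower in iPS4F. In iPS6F, where 1 array detected it, the log2 difference was -3.36 ± 0.10. Hoxd10, which with its paralogs patterns the lumbosacral region and the limb, was at 6.25, 6.17 and 6.06 in MEF and 4.12 to 4.22 elsewhere. It was at least 3.23-fold lower in ESC, 3.48-fold in iPS4F and 3.39-fold in iPS6F. The other 3 genes were nearer to background. Hoxd4, a gene of the hindbrain and neck vertebrae, was at 5.22, 5.25 and 5.20 in MEF and 4.13 to 4.55 elsewhere, a log2 difference of -0.87 in ESC. Hoxd9 was at 4.85, 5.05 and 5.21 in MEF and 4.13 to 4.39 elsewhere, and it was at least 1.48-fold lower in ESC. Hoxd3, which shapes the first neck vertebrae, was at 4.83, 5.04 and 4.67 in MEF and 4.12 to 4.67 elsewhere, so its lowest MEF array exceeded its highest other array by only 0.0039, and its log2 difference in ESC was -0.51 (limma adjusted p 0.0029). It was at least 1.41-fold lower in iPS4F and 1.37-fold lower in iPS6F (0.000362 and 0.000196).

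In HoxA, Hoxa7, a trunk gene, was at 6.77, 7.39 and 7.32 in MEF and 4.18 to 4.71 elsewhere, with log2 differences of -2.76, -2.85 and -2.86. Hoxa5, which is needed for lung development, was at 6.78, 6.38 and 6.77 in MEF and 4.14 to 4.39 elsewhere. It was at least 4.52-fold lower in ESC and 4.88-fold lower in iPS4F, and its log2 difference in iPS6F was -2.40 ± 0.12. Hoxa2, the selector gene of the second pharyngeal arch, was at 5.24, 5.03 and 4.80 in MEF and 4.09 to 4.42 elsewhere, with log2 differences of -0.81 in ESC and -0.73 in iPS6F, and it was at least 1.59-fold lower in iPS4F. Its second probe was detected on the MEF arrays only. The MEF arrays of these 3 genes lay above every pluripotent array, which their passing the filter through MEF alone makes likely.

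Hoxa13, which patterns the digits and the urogenital tract, was the exception. Its levels were 4.41, 4.81 and 4.92 in MEF, 4.56, 4.60 and 5.24 in ESC, 4.33, 4.71 and 4.69 in iPS4F, and 4.62, 4.86 and 4.46 in iPS6F. The 4 groups overlapped and the highest array was an ESC array. The log2 differences from MEF were 0.08, -0.14 and -0.07, each with an SE of 0.18 and none past the threshold (limma adjusted p 0.685, 0.484 and 0.742). Their 95% intervals were -0.30 to 0.47, -0.53 to 0.24 and -0.45 to 0.32. Only 1 of the 3 Hoxa13 probes was detected, on 3 of 3 MEF, 3 of 3 ESC, 2 of 3 iPS4F and 3 of 3 iPS6F arrays, and the other 2 probes were detected on no array. At a stricter detection p of 0.01, no Hox gene was detected on all arrays of ESC or of iPS6F. Some Hox genes counted as detected in MEF also fell short at that threshold.

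**Figure D4:**
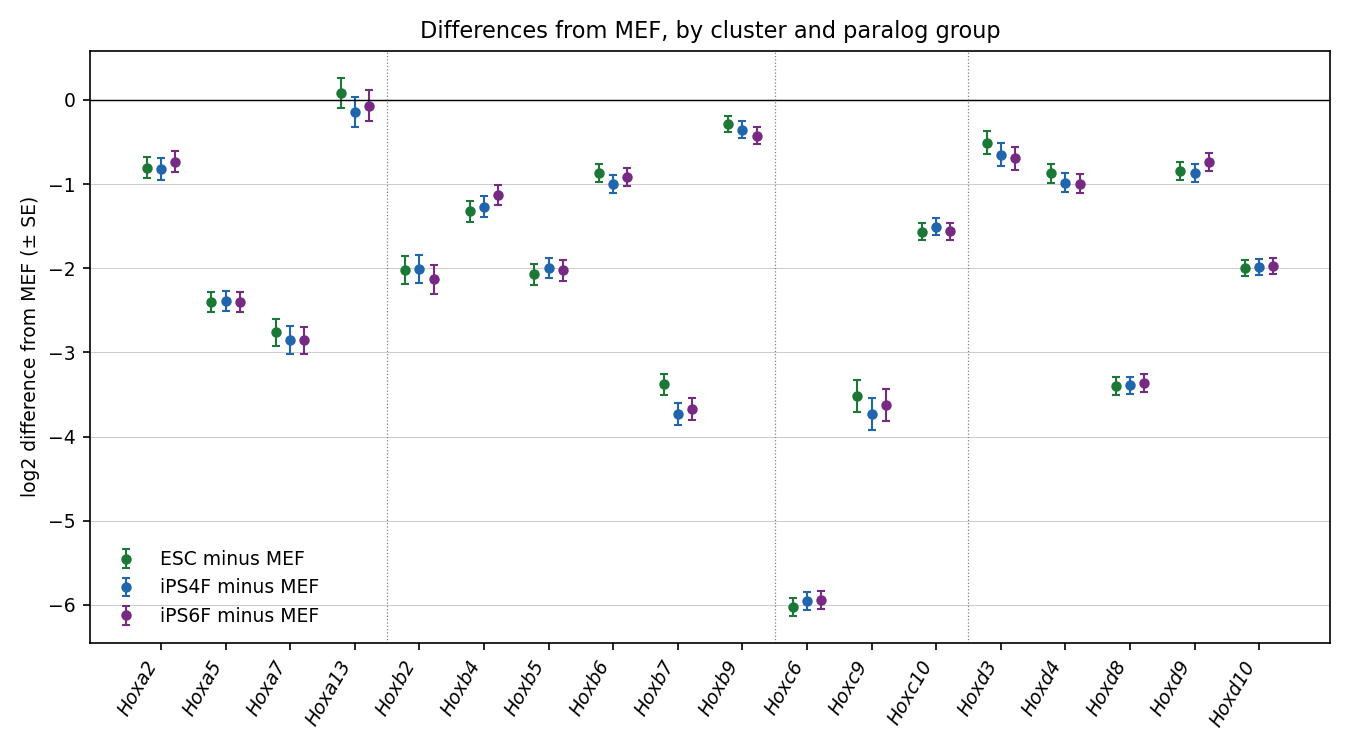
Points are fitted log2 differences from MEF of ESC, iPS4F and iPS6F for the 18 tested Hox genes, with bars of 1 SE, ordered by cluster (dotted lines) and paralog group. The points run from -6.02 for Hoxc6 in ESC to 0.08 for Hoxa13 in ESC. Where a gene was undetected the point depends on the background and is not a bound, and the 3 comparisons share the MEF arrays.

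The 20 Hox genes that did not pass the filter were Hoxa3, Hoxa4, Hoxa6, Hoxa9, Hoxa10, Hoxa11, Hoxb1, Hoxb3, Hoxb8, Hoxb13, Hoxc4, Hoxc5, Hoxc8, Hoxc11, Hoxc12, Hoxc13, Hoxd1, Hoxd11, Hoxd12 and Hoxd13. Of these, 9 were detected on none of the 12 arrays by any probe. Detection reached 2 of 3 arrays of a group, 1 short of the filter, in MEF for Hoxa4, Hoxa9, Hoxd12 and Hoxd13, in iPS6F also for Hoxa4, in iPS4F for Hoxc8 and in ESC for Hoxc13. Hoxd12, a limb gene, was at 4.36, 4.74 and 4.88 in MEF and 4.15 to 4.43 elsewhere. Hoxa4 was at 4.58, 4.91 and 4.15 in MEF and 4.15 to 4.79 elsewhere, and its groups overlapped. When all 38 genes were tested with no filter, 18 were lower in ESC, 19 in iPS4F and 19 in iPS6F, beside 19.4%, 21.1% and 21.4% of 19057 genes. The added genes, none of them detected on all arrays of a group, were Hoxd12 in all 3 comparisons (fitted log2 differences -0.37, -0.46 and -0.49) and Hoxa9, a gene of the lumbar region and of blood progenitors, in both iPS lines (-0.32 and -0.27).

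Hox levels were next compared among the pluripotent groups, to describe how far the groups differed. In a difference between iPS6F and iPS4F, the added Brg1 and Baf155 and the line itself cannot be told apart here. Of the 18 tested genes 17 had passed the filter through MEF alone and were near background in the pluripotent groups. Few calls among these groups could arise, so a low count beside the share of all genes does not show likeness. Between iPS4F and ESC, 1 of 18 Hox genes was called, beside 42.7% of all genes, 24.9% lower and 17.8% higher. That gene was Hoxb7, lower in iPS4F by a log2 difference of -0.35 ± 0.13 (limma adjusted p 0.0341, every ESC array above every iPS4F array), and at least 1.20-fold lower as a bound. Both groups were near background: 2 of 3 ESC arrays and 0 of 3 iPS4F arrays detected it, and the second Hoxb7 probe differed by -0.06 ± 0.15 (adjusted p 0.79 in the fit over probes). Over all alternatives its adjusted p ran from 0.01 to 0.229. The call was lost without ESC array 1 (-0.24, adjusted p 0.165), without iPS4F array 1 (-0.32, 0.0947), array 2 (-0.38, 0.0525) or array 3 (-0.33, 0.0905). The 18 differences between iPS4F and ESC ran from -0.35 to 0.08, with 95% intervals between -0.62 and 0.37.

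Between iPS6F and ESC, 0 of 18 were called by limma, 1 had an unadjusted p under 0.05, and 45.8% of all genes were called. The differences ran from -0.29, for Hoxb7 (adjusted p 0.069), to 0.19, with 95% intervals between -0.56 and 0.45. Without ESC array 2 the Hoxb7 difference passed the threshold (-0.39, adjusted p 0.0366). Between iPS6F and iPS4F, 0 of 18 were called, 0 had an unadjusted p under 0.05, and 1.16% of all genes were called, 0.763% lower and 0.396% higher. Those differences lay between -0.12 and 0.14, with intervals between -0.48 and 0.51. A p above the threshold does not show that the lines are alike, and most of these values compare groups in which the gene was not detected on all arrays.

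The TALE homeodomain proteins (Pbx, Meis, Pknox and Tgif) bind DNA together with Hox proteins or beside them. Of 8 tested genes of this list, 4 were lower and 2 higher in ESC than in MEF, 4 and 2 in iPS4F, and 4 and 3 in iPS6F. Over all genes 36.3%, 39.1% and 39.4% were lower and 40.3%, 39.8% and 39.2% higher. In ESC with median scaling 5 of the 8 were lower and 0 higher. Meis1 was at 9.28, 9.04 and 9.06 in MEF, 4.97, 5.28 and 5.34 in ESC, 4.36, 4.50 and 4.26 in iPS4F, and 4.31, 4.33 and 4.35 in iPS6F. MEF was highest and ESC stood above both iPS lines. Its log2 difference from MEF was -3.93 ± 0.12 in ESC and -4.75 ± 0.12 in iPS4F, and Meis1 was at least 26.5-fold lower in iPS6F. Meis2 was at 9.38, 8.94 and 8.85 in MEF, 6.30, 6.16 and 6.12 in ESC, 4.95, 4.84 and 4.85 in iPS4F, and 4.38, 4.55 and 4.95 in iPS6F, so ESC lay between MEF and the iPS lines without overlap. Against ESC, Meis1 differed by -0.82 in iPS4F (limma adjusted p 4.04e-05) and Meis2 by -1.32 in iPS4F (4.51e-06) and -1.56 in iPS6F (5.93e-07). Pbx3 was lower than MEF in ESC (-0.98 ± 0.13). Pbx2 was higher (0.77 ± 0.12), a call not among those made with median scaling.

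Among homeobox genes outside the Hox clusters that are known from mesenchyme, most tested members were lower than MEF. The list and its counts also include Tbx4, a T-box gene without a homeobox. Tbx4 was at 5.78, 5.87 and 5.84 in MEF and 4.34 to 4.82 elsewhere. Of 18 tested, 15 were lower and 0 higher in ESC, and 15 were lower and 3 higher in each iPS line, beside 36.3%, 39.1% and 39.4% lower and 40.3%, 39.8% and 39.2% higher over all genes. Of the 18, 11 were detected in MEF alone and, among all genes of that kind, 90.7%, 93.7% and 93.7% were lower. The list had a median log2 difference of -1.48, -1.39 and -1.48. Without background correction, with median scaling or in the authors' deposited log2 table the number lower was 14 or 15 in each comparison, and the number higher was 0 or 1 in ESC and 2 or 3 in the iPS lines. Prrx1, a limb mesenchyme gene, was at 9.002, 8.93 and 9.16 in MEF and 4.16 to 4.86 elsewhere. En1, known from the ventral limb ectoderm and a dermal fibroblast lineage, was at 8.87, 8.73 and 8.76 in MEF and at 4.11 to 4.23 elsewhere, and it was at least 20.0-fold lower in ESC, 21.55-fold in iPS4F and 20.97-fold in iPS6F. Meox1, a gene of the somites, was at least 7.12-fold lower in ESC, and Irx2 differed by -2.64 ± 0.13. The 3 genes higher in the iPS lines included Barx2 and Dlx3, both undetected on every MEF array. Barx2 was at least 1.44-fold higher in iPS4F and 1.14-fold in iPS6F, and Dlx3 at least 1.55-fold and 1.24-fold.

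**Figure D5:**
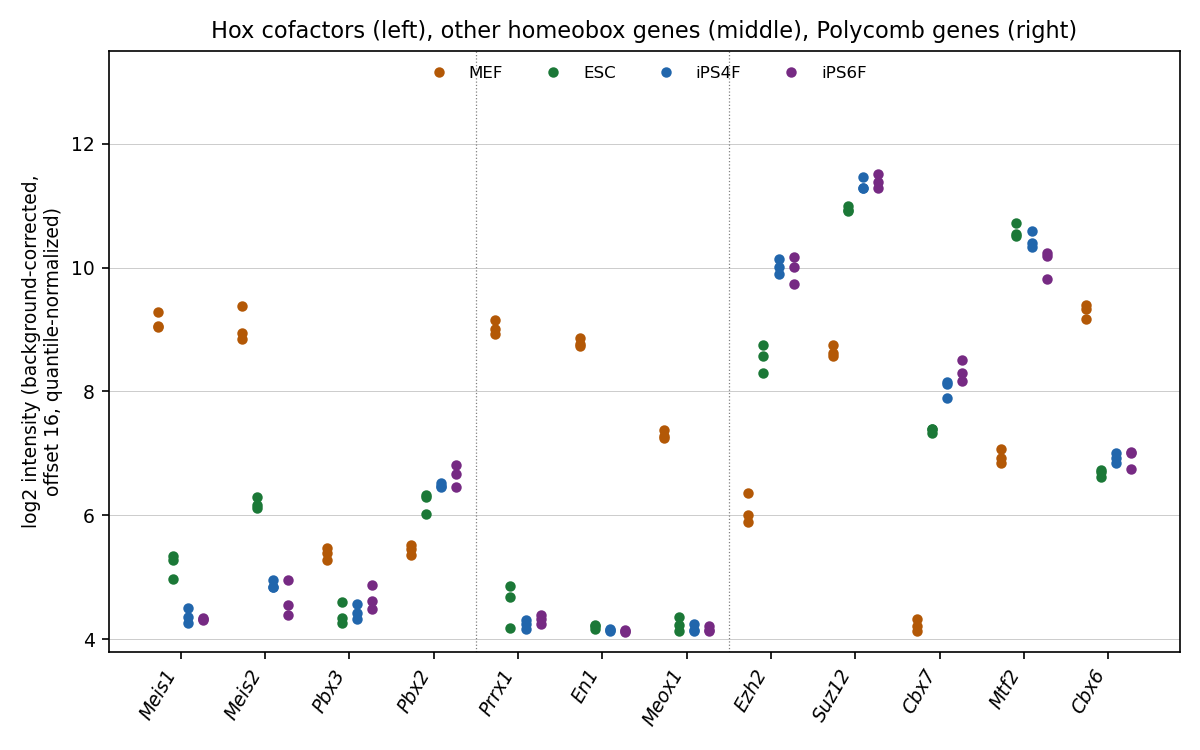
Points are single arrays on the log2 intensity scale for TALE cofactors, homeobox genes outside the Hox clusters, and Polycomb genes, coloured by group. Meis1 and Meis2 are highest in MEF and lower in both iPS lines than in ESC, and Ezh2 is lowest in MEF and higher in both iPS lines than in ESC.

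Among regulators of the Hox clusters, Polycomb group genes, which repress them, were mixed. Of 25 tested, 14 were higher and 7 lower in ESC than in MEF, 16 and 7 in iPS4F, and 17 and 7 in iPS6F. Over all genes 40.3%, 39.8% and 39.2% were higher and 36.3%, 39.1% and 39.4% lower. With median scaling 12, 16 and 12 of the 25 were higher. Ezh2, the histone H3K27 methyltransferase, was at 6.36, 6.00 and 5.89 in MEF, 8.75, 8.30 and 8.58 in ESC, 10.13, 10.01 and 9.89 in iPS4F, and 10.01, 10.16 and 9.73 in iPS6F. The groups MEF, ESC and iPS did not overlap, and the difference from ESC was 1.47 ± 0.15 in iPS4F (limma adjusted p 1.31e-06) and 1.43 ± 0.15 in iPS6F (1.28e-06). Mtf2, a partner of that enzyme, was 3.65 ± 0.13 above MEF in ESC. Cbx7, a Polycomb reader of the mark, was undetected on every MEF array and at least 7.76-fold higher in ESC, 12.5-fold in iPS4F and 15.1-fold in iPS6F, whereas its relative Cbx6 differed from MEF by -2.62 ± 0.11 in ESC. Phc1 was 2.85 ± 0.13 above MEF in ESC. Rbbp7, a histone-binding subunit, was above ESC by 1.56 ± 0.23 in iPS4F and 1.75 ± 0.23 in iPS6F.

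Trithorax genes, which counter Polycomb, were tested with the H3K27 demethylases. Of 12, 7 were higher and 0 lower in ESC, and 7 were higher and 2 lower in each iPS line, beside 40.3%, 39.8% and 39.2% of all genes higher and 36.3%, 39.1% and 39.4% lower, but with median scaling 4 were higher and 2 lower in ESC. Dpy30 and Ash2l, core subunits of the H3K4 methyltransferase complexes, were 2.98 ± 0.13 and 2.55 ± 0.10 above MEF in ESC. Wdr5 of the same core was 1.65 ± 0.14 above, and Psip1, a chromatin reader, 1.36 above. Against ESC, Men1, a partner of the same enzymes, differed by -0.75 in iPS4F and -0.54 in iPS6F, and Kmt2c by 0.63 in iPS4F. Cdx proteins and retinoic acid are known to switch Hox genes on in the embryo. Only 4 of 13 genes of that list were tested, and Cdx1, Cdx2 and Cdx4 were not among them, since no probe was detected on all arrays of any group. Of the 4, 2 were higher and 0 lower in ESC, and 1 was higher under each other scaling. In each iPS line 1 was higher and 2 lower, but with median scaling 0 were lower in iPS4F. The shares over all genes are those given above for the trithorax list, and 4 genes are too few to set against them. Rxra, a retinoid receptor, was 1.17 ± 0.14 above MEF in ESC, and Rarg was 0.27 ± 0.12 above MEF in ESC (adjusted p 0.0496) and -0.46 ± 0.12 relative to MEF in iPS6F. Rxrb, another retinoid receptor, differed from MEF by -0.38 ± 0.15 in iPS4F and -0.64 ± 0.15 in iPS6F (limma adjusted p 0.0306 and 0.000915), and from ESC by -0.41 and -0.67.

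The genes beside the clusters went in both directions. Of 16 tested, 7 were higher and 5 lower in ESC than in MEF, 9 and 5 in iPS4F, and 8 and 4 in iPS6F, beside 40.3%, 39.8% and 39.2% of all genes higher and 36.3%, 39.1% and 39.4% lower, with 4 and 5 in ESC with median scaling. Near HoxA, Skap2 was 1.42 ± 0.12 above MEF in ESC and Snx10 1.66 ± 0.11 above, while Jazf1 on the other side was at least 1.99-fold lower. Next to HoxC, Smug1 was 0.44 ± 0.10 above MEF in ESC and Calcoco1 differed by -0.39 ± 0.14. Cbx5, a neighbour of HoxC that encodes a heterochromatin protein, was 1.04 above MEF in ESC and 2.14 in both iPS lines. Atp5g2 was 1.14 ± 0.13 above in ESC, and Hnrnpa1 was 1.48 above in iPS4F and 1.74 in iPS6F. Mtx2 next to HoxD was undetected in MEF and did not pass the threshold in ESC (0.20, limma adjusted p 0.172) or iPS6F (0.10, 0.479). It was detected on 3 of 3 iPS4F arrays and at least 1.17-fold higher there than in MEF (0.0111). The direct neighbours Evx1, Evx2, Skap1 and Ttll6 were not detected on all arrays of any group.

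Markers were examined for other cells in the samples. All 14 tested fibroblast markers, Lox, Dcn, Col1a1 and Lum among them, were lower than MEF in every pluripotent group, and their summed intensity was 36760 to 42460 in MEF, 330 to 429 in ESC, 515 to 670.5 in iPS4F and 650 to 772 in iPS6F. All 11 pluripotency markers were higher, with a sum of 35.7 to 48.2 in MEF and 26650 to 35050 in the other groups. The MEF arrays also detected all 9 tested blood and macrophage markers, 8 of which were lower in each pluripotent group, or 7 in ESC and iPS4F without background correction and 7 in iPS4F with median scaling. Over all genes 36.3%, 39.1% and 39.4% were lower in ESC, iPS4F and iPS6F, and 40.3%, 39.8% and 39.2% higher. Of the 14 fibroblast markers 8, and of these 9 markers 8, were detected on all 3 arrays in MEF alone. Among all genes of that kind 90.7%, 93.7% and 93.7% were lower, so lower calls of such markers do not stand as support. Lyz2 was at 10.06, 9.44 and 9.32 in MEF and C1qb at 6.90, 7.30 and 7.27, and C1qb was detected on no other array. The summed level of these 9 was 1490 to 1770 in MEF and 1120 to 2043 elsewhere, where Laptm5 alone was higher than in MEF. Of 7 tested epithelial and endothelial markers, 4 were higher than MEF in ESC and their sum was 29.4 to 38.9 in MEF and 462 to 799 elsewhere, and of 3 tested early germ layer markers 2 were lower and 1 higher. Whether these marker transcripts came from other cells or from the main cells of a sample was not tested. The part of any other cells in the Hox values was not tested either.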

How the data were processed

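RNA of the 12 samples was amplified into biotin-labelled cRNA and hybridised, per the labels' protocols. One deposited table holds each probe's intensity, not normalized, since the arrays differ in mean, together with a detection p-value, per the file headers. Another deposited table holds the authors' log2 values, whose 12 columns share a median of 1.16. At any rank these columns differed by at most 0.000817. Each kept the order of the same array's intensities (lowest Spearman correlation 1). No source used here states the table's background step, centring or scale. It served as an alternative that changes the scale of the same intensities. The submitters' processing notes name BeadStudio 3.2, RMA and lumi without roles.

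From the intensities, neqc of limma 3.58.1 (R 4.3.3) made background-corrected, quantile-normalized log2 values with an offset of 16, using the detection p-values for the background. The platform annotation, which can be old, gave 1 symbol to 34885 of the 45281 probes, several to 18 and none to 10378. A probe was kept when all 3 arrays of some group had a detection p under 0.05 (17563 probes), and the kept named probe of highest mean stood for its gene (10096 genes). The number of arrays limits the precision. One limma model (lmFit, eBayes) over all 12 arrays gave 6 differences between the 4 groups, with Benjamini-Hochberg adjustment and a threshold of 0.05, and was tested on simulated data. Mean intensity per array ran from 139 to 237 and detected probes from 14107 to 17741. Correlations within groups were 0.990 to 0.995 over the genes tested, and 0.983 to 0.988 over Hox probes in MEF.

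Every Hox gene detected on all 3 arrays of a group was named, and from each other list up to 4 genes of largest change past the threshold in ESC against MEF and 2 in each other comparison; some markers are given by list only. Smug1, Calcoco1, Mtx2, Laptm5, Suz12 (in a plot only), genes near the filter's limit and undetected neighbours were added after their values were seen. Tbx4, which has no homeobox, was also named outside the naming rule. The Hox genes and all lists were chosen with earlier results of these data known. Alternatives covered background correction, scaling, the authors' table, the filter, the probe rule, the samples fitted, a replicate block and each array left out.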

Additional observations from a re-analysis of the deposited data

Results flagged for a closer look

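Hoxb7 was lower in iPS4F than in ESC by a log2 difference of -0.35 ± 0.13 (limma adjusted p 0.0341); this test of the difference between the 2 kinds of pluripotent cells is what drew attention to it. The ESC arrays read 4.85, 4.47 and 4.54 and the iPS4F arrays 4.23, 4.34 and 4.23, against 7.77 or more in MEF. The same probe differed by -0.29 in iPS6F (adjusted p 0.069). Only 2 of 3 ESC arrays and 0 of 3 iPS4F arrays detected the probe. The call was lost in 8 alternatives, with adjusted p of 0.0525 to 0.229, and the second Hoxb7 probe differed by -0.06 (adjusted p 0.79), so the difference is not settled.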

How the results depend on the processing

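Of the 17 Hox genes lower than MEF, all but 1 (16) in ESC and all 17 in both iPS lines were called alike in all 14 alternatives. Genes that an alternative's filter removed were left out there. The exception was Hoxb9 in ESC, given above. All 17 had passed the filter through MEF alone, which makes lower calls likely under other settings too. The count does not stand as support, and no share over all genes is given beside it. Arrays carry numbers 1 to 3 in each group, but deviations of same-numbered arrays correlated at only -0.176 to 0.140 over 18 pairs, 3 of them over 0.1, so the numbers were not taken as pairing. With the number as a replicate block, 17, 17 and 17 were called lower, and 1, 0 and 0 in iPS4F against ESC, iPS6F against ESC and iPS6F against iPS4F, as without it. No result reversed. The count of Hox genes called in iPS4F against ESC was 0 without background correction, with median scaling, with no filter and with the mean of a gene's probes, and 0 to 1 when single arrays were left out. In iPS6F against ESC it was 2 with the authors' table (Hoxb7 and Hoxb9, -1.07 and -0.79), 1 with no filter (Hoxd1, 0.20, limma adjusted p 0.0202) and 0 to 1 when single arrays were left out. The Hoxd1 probe was detected on no array of any group, so that call compares background levels. The number of Hox genes detected was 0 in ESC and 0 in iPS6F at a detection p under 0.01, where it also fell in MEF. It was 3 in ESC, 2 in iPS4F and 3 in iPS6F when 2 of 3 arrays sufficed, and leaving out single arrays gave 1 to 3, 0 to 1 and 1 to 2. In MEF, Hoxa4, Hoxa9, Hoxd12 and Hoxd13 were added when 2 of 3 arrays sufficed, so the MEF count moves with the rule too. The cause was not tested; fewer arrays or a looser rule pass more probes by construction. Median scaling moved the median of all genes from 0.08 to -0.14 in ESC against MEF, from 0.04 to 0.24 in iPS4F against MEF and from -0.05 to 0.39 in iPS4F against ESC. It moved the share of called genes that were higher from 52.6% to 37.9% in ESC against MEF, from 41.7% to 94.5% in iPS4F against ESC, from 38.9% to 76.5% in iPS6F against ESC and from 34.2% to 7.14% in iPS6F against iPS4F. The scalings of the gene lists and markers were chosen after seeing the data. A slide block was not run because the file headers give no slide.

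Signal limits the rest: 20 Hox genes were near background everywhere, and the offset understates folds of dim genes.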
